A study of Homo sapiens with 9 samples.

Results

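The genes of the transforming growth factor beta (TGF-beta) and bone morphogenetic protein (BMP) pathway were followed in spinal cord organoids (SCOs) exposed to valproic acid (VPA) with or without Rapamycin. The members are the protein-coding genes whose symbols begin as those of the ligands (TGFB, BMP, GDF and INHB), the latent TGF-beta binding proteins, the secreted antagonists, the receptors, BAMBI, the SMADs and the ID proteins. They number 61 of the 31589 genes with a row in any of the deposited tables, or of 17226 protein-coding genes, and were sorted into 11 roles. GDF15, a distant family member, was left out by the rule. BMP1, a protease that trims procollagen, and BMP2K, a kinase, match by their letters only and are not ligands. BMP10, BMP15, GDF1 and GDF2 were not analysed here.

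SCOs are 3D cultures of the developing neural tube and neural crest, grown from the induced pluripotent stem cell line WTC. Bulk RNA sequencing covered 9 libraries, 3 from SCOs kept in FGF alone (vehicle), 3 with VPA (an inhibitor of histone deacetylases) and 3 with VPA and Rapamycin (an inhibitor of mTOR), each exposed for 96 h according to the labels, while the text of the study gives another exposure time and states differing VPA doses. The genotype is labelled WT, and the study describes 3 clones of the line that carry a SOX10 reporter, some with small insertions or deletions in the other SOX10 allele, with several SCOs pooled per clone. The sample descriptions hold C4, C5 and C6, each once in every group and in the order of the replicate numbers. These are not the clone names of the study, which states that each column of its heatmaps stands for a clone. The labels thus do not tie a library to a named clone, but the libraries may be linked across groups. The main tests did not pair them, so p-values measure the spread among these libraries. The early medium of every group held CHIR99021 and SB-431542, which blocks the type I receptors encoded by TGFBR1, ACVR1B and ACVR1C. No group received Rapamycin without VPA.

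TGF-beta family ligands are secreted as dimers and bring together type I and type II receptor kinases. The activated type I receptors phosphorylate SMAD2 and SMAD3 in the TGF-beta and activin branch and SMAD1, SMAD5 and SMAD9 in the BMP branch, and these enter the nucleus with SMAD4. SMAD6 and SMAD7 restrain the signal, ID genes are well-known direct targets of BMP, and secreted antagonists such as Noggin and Chordin hold BMP away from its receptors. In the neural tube, BMPs and GDFs from the roof plate pattern dorsal cell types and take part in the induction of the neural crest.

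The libraries held 15290436 to 17417478 counts, with similar ranges in the 3 groups. Levels below are normalized counts, counts scaled to a common library size with TMM factors over the 9 libraries, and levels are compared between genes only as RPKM (counts scaled by gene length and library size). Of the 9 neural progenitor markers examined, every one was present in all groups, and their summed level spanned 65020 to 75780 normalized counts over the 9 libraries. Within vehicle, replicates 1 and 3 lay farthest apart, with a chi-square per gene of 39.1, against 13.5 for replicates 1 and 2 and 17.9 for replicates 2 and 3, while pairs of libraries in the other groups gave 4.75 to 14.4. Marker sums of other cell types also differed between the groups. The 12 mesenchymal markers summed to 2990 to 5867 normalized counts in vehicle, 10490 to 13020 with VPA and 5102 to 7063 with VPA and Rapamycin, and the 9 neuron markers to 22920 to 39480, 19880 to 21290 and 21330 to 22470. The mesenchymal sum is mostly COL1A1 and COL1A2 (means of 4446 and 5257 with VPA), and with VPA 3 of 11 tested were called higher (THY1, COL1A2 and COL1A1), while COL3A1, PDGFRA and PRRX1 had log2 fold changes of -0.49, -1.05 and -0.43. Of the 9 neuron markers 6 were called lower with VPA. No mesenchymal or neuron marker was under 3 counts throughout a group. The part of these shifts in the results below was not tested, and in bulk RNA fewer cells of a type and less RNA per cell cannot be told apart.

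The promoters of 5 members that moved with VPA are shown so that the start regions of called genes of different roles can be set beside each other, the first 4 raised and TGFB2 lowered. Sequences are from RefSeq on GRCh38.p14, 5′ to 3′ on the strand of the gene, and cover the 250 bases before the annotated start. Capitals mark a match to the motifs described after them.
BMP8B (chr1:39788866-39789115, minus strand): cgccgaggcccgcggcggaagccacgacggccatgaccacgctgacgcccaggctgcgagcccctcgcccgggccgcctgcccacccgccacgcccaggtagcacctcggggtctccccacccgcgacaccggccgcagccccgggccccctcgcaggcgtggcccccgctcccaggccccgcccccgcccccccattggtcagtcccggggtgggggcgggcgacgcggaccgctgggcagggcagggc
CHRDL1 (chrX:110795818-110796067, minus strand): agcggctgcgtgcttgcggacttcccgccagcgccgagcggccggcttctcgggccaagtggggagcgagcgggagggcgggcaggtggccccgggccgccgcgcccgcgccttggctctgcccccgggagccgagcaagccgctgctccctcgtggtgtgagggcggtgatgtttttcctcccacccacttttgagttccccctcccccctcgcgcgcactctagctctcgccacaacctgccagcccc
TGFB1 (chr19:41353923-41354172, minus strand): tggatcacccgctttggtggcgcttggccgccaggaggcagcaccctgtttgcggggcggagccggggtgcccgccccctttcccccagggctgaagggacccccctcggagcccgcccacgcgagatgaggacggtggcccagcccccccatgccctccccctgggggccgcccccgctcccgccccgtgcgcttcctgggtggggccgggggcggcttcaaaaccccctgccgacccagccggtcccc
SMAD6 (chr15:66701986-66702235, plus strand): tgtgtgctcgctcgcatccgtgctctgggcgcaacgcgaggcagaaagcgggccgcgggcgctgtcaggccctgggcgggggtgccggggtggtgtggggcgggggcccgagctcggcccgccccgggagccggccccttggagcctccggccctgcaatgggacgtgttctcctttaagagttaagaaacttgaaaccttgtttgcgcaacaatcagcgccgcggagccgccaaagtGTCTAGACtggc
TGFB2 (chr1:218345086-218345335, plus strand): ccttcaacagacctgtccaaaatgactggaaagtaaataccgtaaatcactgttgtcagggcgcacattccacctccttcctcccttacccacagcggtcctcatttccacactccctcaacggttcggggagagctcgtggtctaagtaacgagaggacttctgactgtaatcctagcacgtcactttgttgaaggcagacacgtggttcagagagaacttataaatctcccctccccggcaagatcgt

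For TGFB2 the RefSeq start lies 899 bases from the start of the gene in the deposited tables, while for the other 4 genes the difference is 2 to 11 bases. RefSeq windows of 300 bases (250 before and 50 after the start) were found for 50 of the 61 members, giving 86 of the 35116 windows. Each window was searched on both strands for GGCGCC (bound by SMAD1 and SMAD5), GTCTAGAC (the palindromic SMAD binding element) and TGACTCA (the AP-1 element), none of which overlaps another in letters. GGCGCC stood in 23 of the 86 member windows (26.7%) against 19.2% of all windows, TGACTCA in 4 (4.65%) against 4.95%, and GTCTAGAC in 1 against 0.202%. That window is the one of SMAD6, an inhibitory SMAD, where the match begins 12 bases before the start. Member windows had a median GC content of 64.8% and 27.5 CpG dinucleotides, against 58.7% and 14.0 over all windows. Over the windows of 300 bases of the genes printed, GC content ran from 79.7% for BMP8B, 77.3% for TGFB1, 73.7% for CHRDL1 and 68.0% for SMAD6 to 51.7% for TGFB2. A link of GC content with the direction of change was not tested. A match is a run of letters and does not show that a factor binds there.

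In vehicle SCOs, levels per length ran over more than 3 orders of magnitude. ID2 (78.8 ± 15.1 RPKM, mean ± SD, n = 3 here and below) and ID4 (76.9 ± 15.4) led and did not differ beyond their spread. They were followed, without overlap of ID4 and TGFBR1 within 1 SD, by TGFBR1 (49.5 ± 10.97), TGFB2 (46.8 ± 10.3), ID1 (41.7 ± 8.3), LTBP4 (37.9 ± 6.0) and the activin antagonist FST (25.7 ± 6.8), and from TGFBR1 on each of these overlapped the next within 1 SD. Among the BMP ligands BMP7 was highest at 11.2 ± 1.46 RPKM, and BMP2, BMP4, BMP6 and BMP8B lay between 0.299 and 1.14. The lowest values were those of INHBA, ACVR1C and ACVRL1, between 0.0288 and 0.0305 RPKM, which rest on a few counts each and did not differ beyond their spread. BMP3, BMP8A, GDF5, ACVR1C, CHRDL2, INHBA and INHBC, 7 members in all, stayed under the filter on low counts in every comparison, with at most 12 counts in a library. They were left out of the main tests, so nothing is said here about their change.

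The comparison of VPA with vehicle asks what VPA alone did to the pathway. Of 54 members tested, 18 were higher (33.3%) and 9 lower (16.7%) at an adjusted p of at most 0.05, against 16.4% higher and 15.7% lower among all 17360 genes tested. The share of members lowered was near the background and the share raised was above it. The median log2 fold change was -0.04 over the members and -0.003 over all genes. All 27 called members had groups that did not overlap. Here and in the comparisons below, overlap was counted for members only and not over all genes, so it is given as a description. The raised genes were ligands (TGFB1, INHBB, BMP2, BMP6, BMP7, BMP8B, GDF6 and GDF10), binding proteins (LTBP1, LTBP2 and LTBP4), the antagonists CHRD and CHRDL1, the receptors ACVR1, ACVRL1 and BMPR1B, and SMAD6 and ID1. The lowered genes included TGFB2, 4 receptors and the signal carriers and regulators SMAD4, SMAD5 and SMAD7. These counts depended on single libraries, with 20 higher and 11 lower without vehicle replicate 3, 21 and 18 without vehicle replicate 1, 12 and 8 without vehicle replicate 2, 11 and 5 without VPA replicate 1, 15 and 6 without VPA replicate 2, and 15 and 5 without VPA replicate 3.

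**Figure D1:**
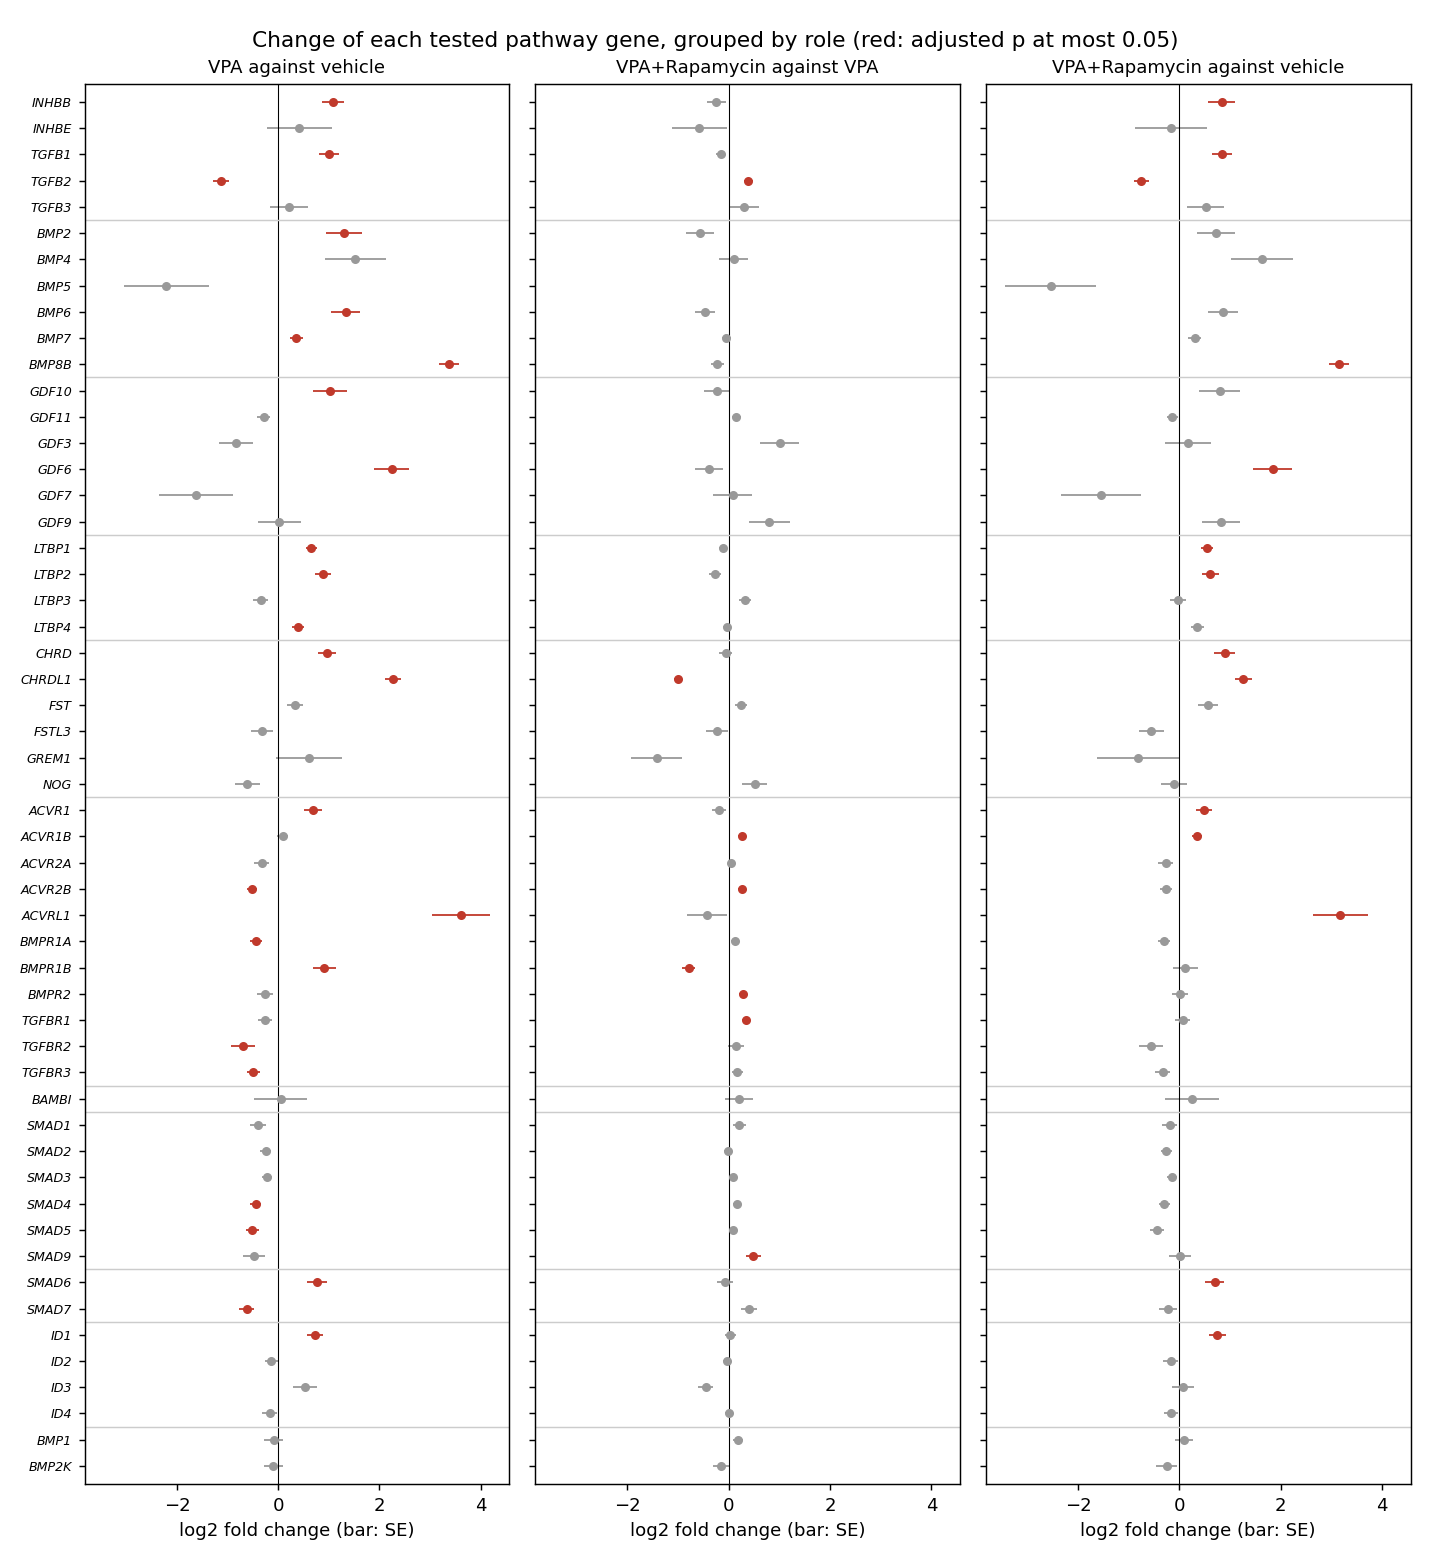
Log2 fold change (x axis) with its standard error for the members tested (y axis, grouped by role from ligands at the top to the 2 genes named by letters only at the bottom), in the 3 comparisons, with red for an adjusted p of at most 0.05. In VPA against vehicle, 18 red points lie above zero and 8 below, and in VPA+Rapamycin against VPA, 6 above and 2 below. ACVRL1 has 2 or 3 counts in each vehicle library, so its fitted value is uncertain.

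The TGF-beta ligand genes moved in opposite directions. TGFB1 (chr19:41301587-41353911, minus strand, GRCh38) stood at 475, 349 and 252.5 normalized counts in vehicle, 672, 777 and 718 with VPA and 629.8, 673 and 631 with VPA and Rapamycin. Every treated library was above every vehicle library, a 2.01-fold rise with VPA (log2 fold change 1.01 ± 0.19 SE, adjusted p = 0.0028). TGFB2 (chr1:218346235-218444619, plus strand), the most abundant ligand gene of the set, stood at 3867, 4901 and 3158 in vehicle, 1827, 2028 and 1580 with VPA and 2383, 2513 and 2172 with both drugs. It fell by 1.13 ± 0.16 on the log2 scale with VPA (adjusted p = 0.00041), with the VPA group lowest, vehicle highest and no overlap among the 3 groups. TGFB3 lay at 21.5, 33.7 and 53.8 in vehicle, at 45.2, 34.5 and 46.8 with VPA and at 49.0, 63.3 and 43.5 with both drugs, and the groups overlapped (log2 fold change 0.22 ± 0.37, adjusted p = 0.69). Exons of TGFB1 share 215 bases with HNRNPUL1 on the other strand, whose mean count was 774% of that of TGFB1, and HNRNPUL1 gave a log2 fold change of -0.01 with VPA (adjusted p = 0.95).

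Per length, the make-up of the TGF-beta ligand transcripts shifted with VPA. The share of TGFB1 in the summed RPKM of TGFB1, TGFB2 and TGFB3 was 16.3%, 10.1% and 11.1% in the vehicle libraries, 36.3%, 37.5% and 41.2% with VPA and 29.2%, 29.3% and 31.2% with VPA and Rapamycin. The sum itself was 54.0 ± 11.1 RPKM in vehicle, 35.4 ± 3.18 with VPA and 40.5 ± 2.53 with both drugs. The share was chosen after the values of the genes were seen and was not tested.

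**Figure D2:**
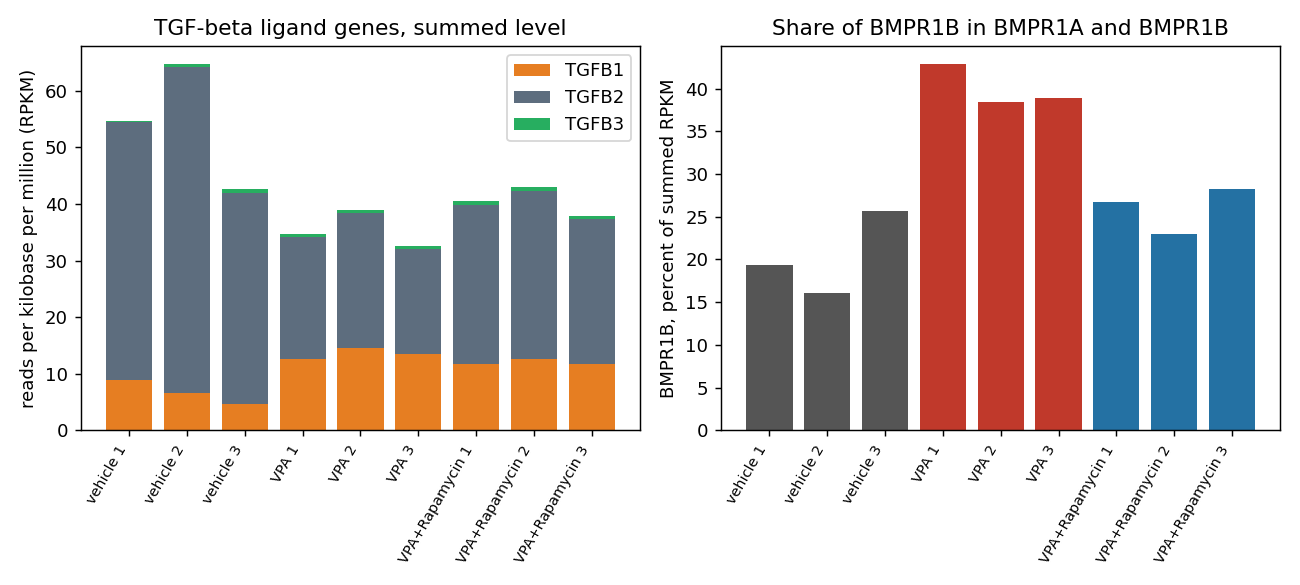
Left, RPKM of TGFB1, TGFB2 and TGFB3 stacked for each of the 9 libraries, with TGFB2 the larger part in every library and TGFB1 at 10.1% to 16.3% of the sum in vehicle and 36.3% to 41.2% with VPA. Right, the share of BMPR1B in the summed RPKM of the receptor genes BMPR1A and BMPR1B in each library, which spans 16.0% to 25.7% in vehicle, 38.4% to 42.9% with VPA and 23.0% to 28.3% with VPA and Rapamycin.

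Among the activin chains, INHBB, which encodes the chain of activin B and inhibin B, stood at 71.4, 69.6 and 110.7 normalized counts in vehicle, 173, 177 and 183 with VPA and 110.7, 155 and 183 with both drugs. It rose 2.12-fold with VPA (log2 fold change 1.08 ± 0.22, adjusted p = 0.0040). INHBE, at most 19.7 normalized counts in any library, did not pass the test in any comparison.

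Of 6 BMP ligand genes tested, 4 rose with VPA and the other two, BMP4 and BMP5, did not pass. BMP8B (chr1:39757182-39788861, minus strand) stood at 35.2, 28.3 and 33.1 normalized counts in vehicle, 299.7, 365 and 340 with VPA and 259, 313 and 288 with both drugs. This was the strongest change among the ligands, a 10.3-fold rise with VPA (log2 fold change 3.37 ± 0.20, adjusted p = 2.7e-06), and vehicle libraries were far below all others. BMP8B has a near-identical paralog in BMP8A, which held at most 12 counts, and its exons share 80 bases with PPIE on the other strand, whose log2 fold change was -0.11 with VPA (adjusted p = 0.52). How reads shared by the paralogs were counted is not given in the sources used here, so the split between them is uncertain. BMP6, a ligand known for its role in iron balance and bone, stood at 74.4, 44.6 and 37.3 in vehicle, 148, 142 and 106 with VPA and 78.4, 97.8 and 109 with both drugs (VPA against vehicle 2.53-fold, log2 fold change 1.34 ± 0.29, adjusted p = 0.0052), with no overlap between vehicle and VPA.

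BMP2 rose 2.45-fold (adjusted p = 0.017), a call lost without vehicle replicate 2 or VPA replicate 1. BMP7 rose 1.28-fold (adjusted p = 0.044), a call lost with vehicle replicate 2 or any 1 VPA library left out. BMP4, a main dorsal signal of the neural tube, stood at 18.6, 1.09 and 25.9 in vehicle and 38.3, 46.7 and 47.7 with VPA and did not pass the test (log2 fold change 1.53 ± 0.61, adjusted p = 0.076), although its groups did not overlap. BMP4 passed with DESeq2, without the filter on low counts, in the fit of all 9 libraries, with the replicate block and without vehicle replicate 3. BMP5 stood at 16.6, 8.70 and 114.9 in vehicle and at 9.83, 5.07 and 14.98 with VPA (adjusted p = 0.064), so its vehicle mean rested on replicate 3.

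Of 6 GDF genes tested, 2 rose with VPA. GDF6, a BMP-like ligand of joints and the dorsal neural tube, stood at 10.8, 15.2 and 11.4 normalized counts in vehicle, 64.8, 57.8 and 54.3 with VPA and 44.1, 33.6 and 57.0 with both drugs. It rose 4.71-fold with VPA (log2 fold change 2.24 ± 0.34, adjusted p = 0.00075), with no overlap between vehicle and either treated group. GDF10 rose 2.04-fold (adjusted p = 0.036), a call lost with vehicle replicate 2 or any 1 VPA library left out. GDF7, a roof plate ligand, stood at 42.1, 16.3 and 252.5 in vehicle and at 38.3, 34.5 and 28.1 with VPA (adjusted p = 0.11), again with 1 vehicle library far above the rest. GDF3, GDF9 and GDF11 were tested and did not pass in any comparison, and exons of GDF9 share 306 bases with the far more abundant UQCRQ.

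The latent TGF-beta binding proteins tether the inactive ligand complex to the matrix. LTBP1 stood at 1358, 1320 and 1152 normalized counts in vehicle, 1992, 2072 and 1954 with VPA and 2101, 1712 and 1753 with both drugs (VPA against vehicle 1.57-fold, log2 fold change 0.65 ± 0.10, adjusted p = 0.0010). LTBP2, a microfibril protein that does not bind latent TGF-beta itself, stood at 213, 175 and 237 in vehicle, 432, 357 and 369 with VPA and 357.5, 289 and 309 with both drugs (1.85-fold, log2 fold change 0.89 ± 0.16, adjusted p = 0.0020). In both genes every treated library was above every vehicle library. LTBP4, the most abundant of the 4, rose 1.31-fold (adjusted p = 0.025), a call lost with vehicle replicate 2 or any 1 VPA library left out, and LTBP3 gave a log2 fold change of -0.35 (adjusted p = 0.097).

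Among the secreted antagonists, CHRDL1 and CHRD of the Chordin family rose. CHRDL1 (chrX:110673856-110795819, minus strand), a Chordin-like BMP antagonist, stood at 584, 567 and 370.5 normalized counts in vehicle, 2474, 2391 and 2434 with VPA and 1345, 1204 and 1108 with both drugs. The 3 groups did not overlap, and VPA raised it 4.80-fold (log2 fold change 2.26 ± 0.16, adjusted p = 9.2e-06). CHRD, which encodes Chordin, stood at 457, 305 and 287 in vehicle, 652, 651 and 740.5 with VPA and 601, 819 and 533.5 with both drugs (1.95-fold, log2 fold change 0.96 ± 0.17, adjusted p = 0.0020). NOG, which encodes Noggin, did not pass (log2 fold change -0.61, adjusted p = 0.089), nor did FST, FSTL3 and GREM1.

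**Figure D3:**
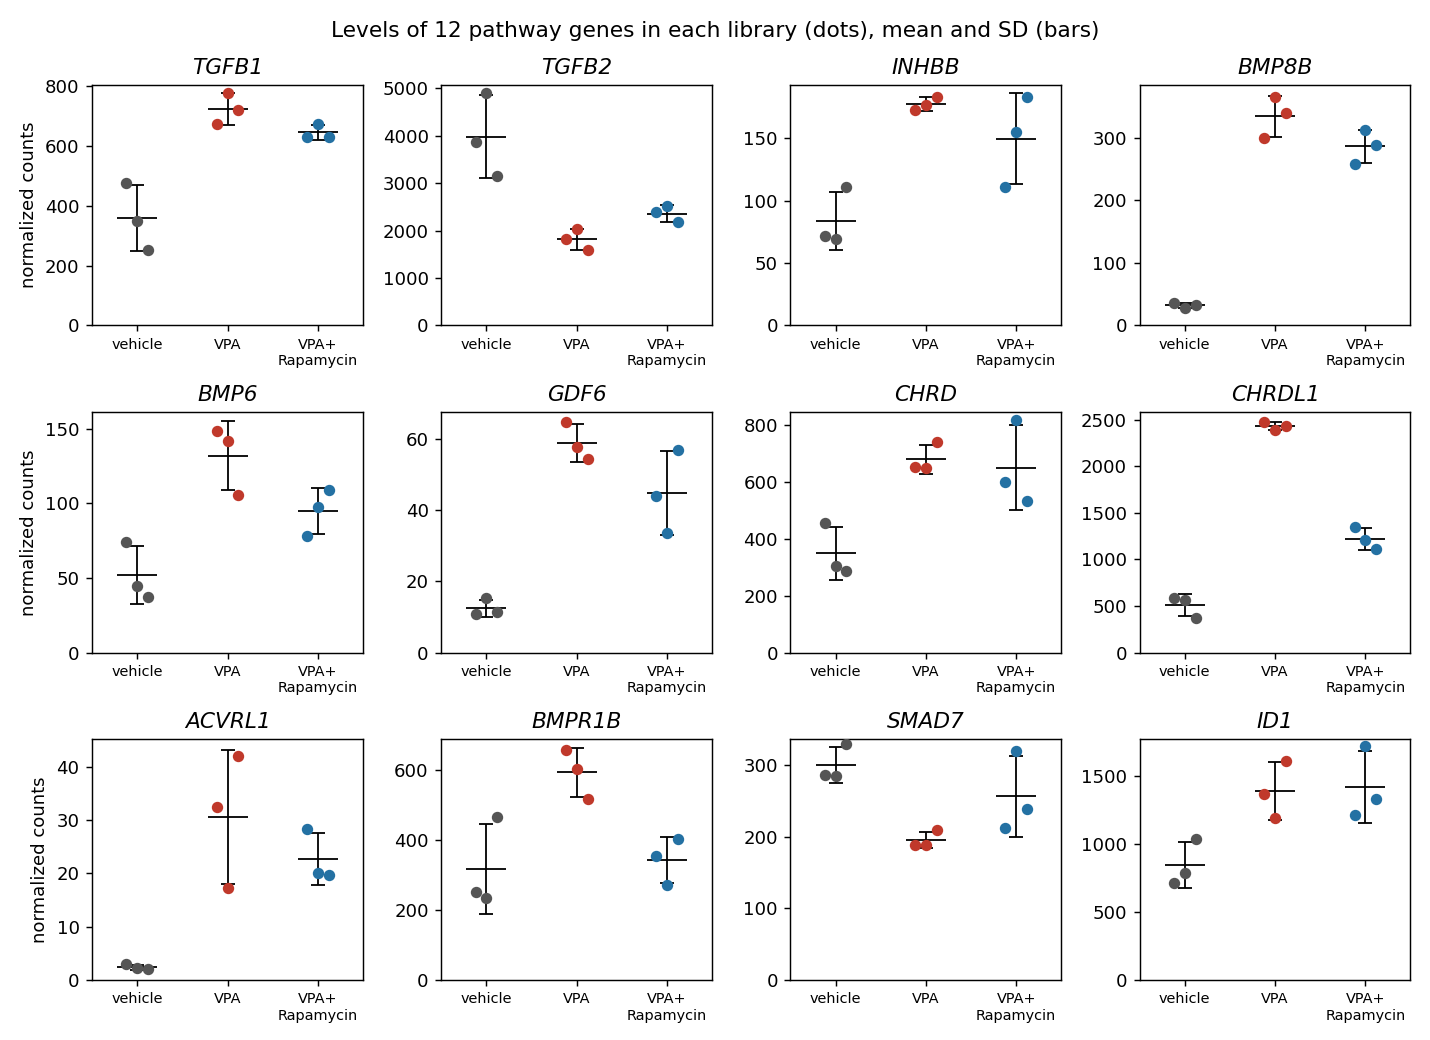
Normalized counts (y axes, linear from 0) of 12 members in each library (dots) for vehicle, VPA and VPA+Rapamycin, with horizontal bars for the mean and whiskers for the SD (n = 3). BMP8B and ACVRL1 are near the floor of their panels in vehicle, CHRDL1 forms 3 separate levels with VPA+Rapamycin in the middle, and TGFB2 is highest in vehicle.

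Of 11 receptor genes tested, 3 rose and 4 fell with VPA. ACVRL1, which encodes the type I receptor ALK1 best known from endothelium, had 3, 2 and 2 counts in vehicle, 33, 17 and 45 with VPA and 29, 21 and 19 with both drugs. Pooled over libraries, its level was 12.8 times that of vehicle with VPA (95% exact interval 6.0 to 32.8, counting error only) and 9.46 times with both drugs (4.35 to 24.4), with adjusted p of 0.00099 and 0.0037. The 6 endothelial markers summed to 99.4 to 155.6 normalized counts in vehicle, 133 to 176 with VPA and 126 to 144 with both drugs, and 0 of the 3 tested were called with VPA (1 of 3, CLDN5, was higher with both drugs). By edgeR 2 of the 3 were higher with VPA at an unadjusted p under 0.05, and by DESeq2 0 passed adjustment. The part of endothelial cells in the change of ACVRL1 was not tested.

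BMPR1B, a type I BMP receptor, stood at 251.5, 233 and 465 normalized counts in vehicle, 659, 603 and 518 with VPA and 356, 271 and 402 with both drugs. It rose 1.88-fold with VPA (log2 fold change 0.91 ± 0.23, adjusted p = 0.012), a call lost without vehicle replicate 2 or VPA replicate 1. Its partner BMPR1A was 1.35-fold lower (adjusted p = 0.016), a call lost without vehicle replicate 2, VPA replicate 1 or VPA replicate 3. The share of BMPR1B in the summed RPKM of the pair was 20.4% ± 4.92 in vehicle, 40.1% ± 2.43 with VPA and 26.0% ± 2.71 with both drugs. ACVR1, which encodes the type I receptor ALK2, rose 1.60-fold (adjusted p = 0.013), a call lost without vehicle replicate 2 or VPA replicate 1.

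The activin type II receptor gene ACVR2B stood at 4855, 5051 and 6080 in vehicle, 3729, 3761 and 3667 with VPA and 4612, 4057 and 4684 with both drugs, and was 1.43-fold lower with VPA (log2 fold change -0.52 ± 0.11, adjusted p = 0.0040) with no overlap. TGFBR2 and TGFBR3, the type II receptor and the co-receptor betaglycan, were 1.62-fold and 1.41-fold lower (adjusted p = 0.042 and 0.014). TGFBR2 was no longer called with vehicle replicate 1, vehicle replicate 2 or any 1 VPA library left out, and TGFBR3 without vehicle replicate 2 or VPA replicate 1 or 2. TGFBR1, ACVR1B, ACVR2A and BMPR2 did not pass, with log2 fold changes of -0.27, 0.09, -0.32 and -0.26. Exons of ACVR2A share 430 bases with ORC4 on the other strand, whose mean count was 86.2% of that of ACVR2A. ORC4 gave a log2 fold change of -0.43 with VPA (adjusted p = 0.054). BAMBI, a receptor decoy without a kinase, stood at 17.6, 29.4 and 103.5 in vehicle and at 56.0, 47.7 and 51.5 with VPA (adjusted p = 0.95), and was called higher without vehicle replicate 3.

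All 6 receptor-activated and common SMAD genes had lower estimates with VPA, between -0.51 and -0.23 on the log2 scale, and 2 passed. SMAD4, the common partner of both branches, stood at 2620, 2652 and 3102 normalized counts in vehicle, 2050, 2141 and 1949 with VPA and 2363, 2106 and 2356 with both drugs. It was 1.36-fold lower with VPA (log2 fold change -0.45 ± 0.10, adjusted p = 0.0081), a call lost without VPA replicate 3. SMAD5 was 1.42-fold lower (adjusted p = 0.016), a call lost with any 1 VPA library left out. SMAD9 stood at 175, 284 and 329 in vehicle and at 183, 189 and 197 with VPA and did not pass (adjusted p = 0.12).

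The inhibitory SMADs diverged. SMAD6, which acts mainly on the BMP branch, stood at 137, 121 and 108 in vehicle, 250.5, 199.8 and 175 with VPA and 208, 211 and 173 with both drugs (1.71-fold with VPA, log2 fold change 0.78 ± 0.20, adjusted p = 0.012), a call lost without VPA replicate 1. SMAD7, which acts on both branches, stood at 287, 285 and 329 in vehicle, 189, 189 and 209 with VPA and 212, 320.3 and 238 with both drugs, and was 1.53-fold lower with VPA (log2 fold change -0.62 ± 0.15, adjusted p = 0.0095).

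ID proteins are helix-loop-helix factors that block differentiation factors. ID1 (chr20:31605283-31606515, plus strand) stood at 716, 787 and 1037 normalized counts in vehicle, 1367, 1193 and 1613 with VPA and 1213, 1719 and 1331 with both drugs. It rose 1.65-fold with VPA (log2 fold change 0.72 ± 0.16, adjusted p = 0.0057), with no overlap. ID2 stood at 2245, 3293 and 3055 in vehicle, 2470, 2689 and 2670 with VPA and 2375, 2855 and 2396 with both drugs (VPA against vehicle log2 fold change -0.13, adjusted p = 0.48), and ID4 at 2469, 2816 and 3625, at 2753, 2317 and 2851, and at 2652, 2641 and 2645 (-0.17, adjusted p = 0.40). ID3 stood at 739.7, 376 and 519.5 in vehicle, 1003, 731 and 629 with VPA and 678, 510 and 530 with both drugs, with overlap throughout (log2 fold change 0.53, adjusted p = 0.10). Of the 4 ID genes, 1 passed in this comparison.

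The next comparison asks what Rapamycin changed in the presence of VPA. Of 53 members tested, 7 were higher (13.2%) and 2 lower (3.77%) with VPA and Rapamycin than with VPA alone, against 3.01% and 3.73% among all 17317 genes tested. The higher members included TGFB2, TGFBR1, ACVR1B, ACVR2B, BMPR2 and SMAD9, and the lower were CHRDL1 and BMPR1B, all without overlap between groups. The median log2 fold change was 0.05 over the members and 0.004 over all genes. The 7 higher calls were fragile, since 4 remained without Rapamycin-treated replicate 2, 2 without replicate 3 of that group, and between 1 and 2 with any VPA library left out. Without Rapamycin-treated replicate 1, 3 of the 7 remained and GDF3 was added, and a single edgeR fit of all 9 libraries called 0 members higher, with 10 at an unadjusted p under 0.05, while DESeq2 on the pair called 6.

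CHRDL1 gave the clearest difference, 1.99-fold lower with Rapamycin (log2 fold change -0.99 ± 0.08, adjusted p = 4.1e-07), and stayed called with each tool, filter and scaling tried and with any 1 library left out, but its size is just under a log2 fold change of 1, so a minimum of 1 removes it. Mesenchymal marker sums also fell between these groups, from 10490 to 13020 down to 5102 to 7063 normalized counts, and 6 of 11 tested were called lower, and their part in the change of CHRDL1 was not tested. BMPR1B was 1.73-fold lower (log2 fold change -0.79 ± 0.13, adjusted p = 0.0013), with the lowest VPA library at 518 and the highest Rapamycin-treated library at 402, a call lost in the single fit of all 9 libraries.

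TGFB2 was 1.30-fold higher with Rapamycin (log2 fold change 0.38 ± 0.09, adjusted p = 0.014), a call lost without VPA replicate 3. The receptor genes TGFBR1 (4750, 4659 and 4515 with VPA, 5963, 5396 and 6133 with both drugs), ACVR1B (1120, 1188 and 1253, then 1410, 1404 and 1438) and BMPR2 (1198, 1258 and 1234, then 1519, 1323 and 1625) rose by 1.26-fold, 1.20-fold and 1.21-fold. Their adjusted p values were 0.0093, 0.047 and 0.0498, and ACVR2B at 1.20-fold gave 0.040. TGFBR1 was not called without VPA replicate 2 or Rapamycin-treated replicate 3, and the other receptors were lost in most refits that left out a library. SMAD9 stood at 237, 255 and 302.5 with both drugs, 1.40-fold above VPA (log2 fold change 0.49 ± 0.14, adjusted p = 0.046). This call was lost under 7 of 12 alternatives, DESeq2 among them.

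TGFB1, BMP8B, LTBP1, CHRD, SMAD6 and ID1, all raised by VPA, did not pass here, with log2 fold changes of -0.16 ± 0.09, -0.22 ± 0.12, -0.11 ± 0.08, -0.06 ± 0.13, -0.08 ± 0.16 and 0.03 ± 0.12. ID3 gave -0.46 ± 0.14 (adjusted p = 0.061) and passed under 5 of 12 alternatives, DESeq2 among them, and SMAD7 gave 0.40 ± 0.16 (adjusted p = 0.15). A p that misses the threshold does not show that these genes were equal in the 2 groups.

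The last comparison asks what remained different from vehicle when Rapamycin was given with VPA. Of 54 members tested, 13 were higher (24.1%) and 2 lower (3.70%) than in vehicle, against 9.81% and 9.22% among all 17383 genes tested, with a median log2 fold change of 0.07 over the members and -0.0009 over all genes. Groups did not overlap for 14 of the 15, the exception being INHBB. The lower members included TGFB2, at 1.69-fold (log2 fold change -0.75 ± 0.15, adjusted p = 0.0074).

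Among the 13 higher members, BMP8B was 8.86-fold above vehicle (log2 fold change 3.15 ± 0.20, adjusted p = 3.9e-05), GDF6 3.59-fold (1.84 ± 0.38, adjusted p = 0.0091) and CHRDL1 2.41-fold (1.27 ± 0.17, adjusted p = 0.0011). TGFB1, CHRD, ID1, SMAD6, LTBP1 and LTBP2 were 1.80-fold, 1.86-fold, 1.68-fold, 1.62-fold, 1.46-fold and 1.53-fold above vehicle, with adjusted p between 0.012 and 0.028. INHBB, ACVR1 and ACVR1B passed with adjusted p of 0.047, 0.0497 and 0.040, and ACVRL1 is described above. The count of higher members was 5 without vehicle replicate 2, 6 without Rapamycin-treated replicate 1, 5 without replicate 2 and 8 without replicate 3 of that group, and 16 without vehicle replicate 3. The count of lower members was 9 without vehicle replicate 1.

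The comparisons share libraries, so their directions are not independent and are set side by side as a description. The members were chosen by their VPA libraries, which are also the reference for Rapamycin. A move back toward vehicle is therefore favoured in advance, and the same counts were not made over all genes. With Rapamycin, 17 of the 18 members raised by VPA had a lower estimate than with VPA alone and 1 (ID1) a higher one, 2 of them passing the test (CHRDL1 and BMPR1B), and 12 of the 18 were still called above vehicle. The 6 no longer called above vehicle were BMP2, BMP6, BMP7, GDF10, LTBP4 and BMPR1B. Log2 fold changes against vehicle, with VPA and then with both drugs, were 1.29 and 0.73 for BMP2 and 1.34 and 0.86 for BMP6. They were 0.36 and 0.31 for BMP7, 1.03 and 0.80 for GDF10 and 0.40 and 0.36 for LTBP4, and BMPR1B is given below. A missed threshold does not show a return to the vehicle level. Of the 9 members lowered by VPA, all 9 had a higher estimate with Rapamycin, 3 passed, TGFB2 and ACVR2B among them, and 2, TGFB2 among them, were still called below vehicle. CHRDL1 stood at log2 fold changes of 2.26 with VPA and 1.27 with both drugs, BMPR1B at 0.91 and 0.12, TGFB2 at -1.13 and -0.75, and BMP8B at 3.37 and 3.15.

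**Figure D4:**
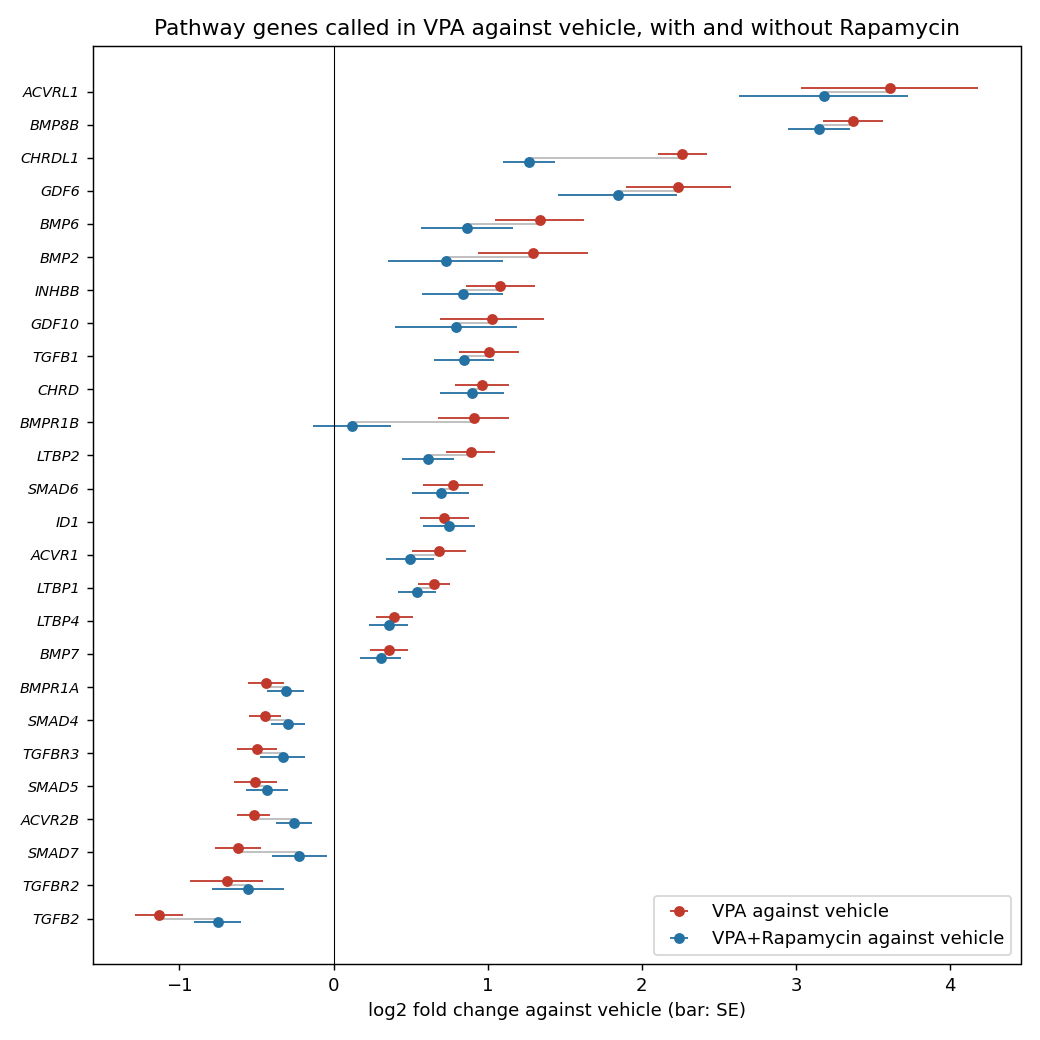
Log2 fold change against vehicle with its standard error (x axis) for 26 of the 27 members called in VPA against vehicle (y axis), in red for VPA and blue for VPA+Rapamycin, both against the same vehicle libraries. CHRDL1 (2.26 and 1.27) and BMPR1B (0.91 and 0.12) show the widest gaps among the raised genes drawn, and BMP8B (3.37 and 3.15) a narrow one. CHRDL1 and BMPR1B are also the only raised genes that passed the test between the treated groups.

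Other genes of the pathway were read from lists of known regulators and targets. Beside the counts below, the shares over all genes tested were 16.4% higher and 15.7% lower in VPA against vehicle. They were 3.01% and 3.73% in VPA+Rapamycin against VPA, and 9.81% and 9.22% in VPA+Rapamycin against vehicle. Among 21 other extracellular and membrane regulators tested in VPA against vehicle, 7 were higher and 4 lower. THBS1, which encodes thrombospondin 1, an activator of latent TGF-beta, rose from 203 ± 19.2 to 834 ± 114 normalized counts (log2 fold change 2.04 ± 0.15, adjusted p = 9.8e-06) and was lower again with Rapamycin at 441 ± 133 (-0.92 ± 0.16, adjusted p = 0.0020 against VPA). NBL1, a DAN family BMP antagonist, and FBN2, a microfibril fibrillin, also rose (log2 fold changes 2.17 ± 0.39 and 0.40 ± 0.09). RGMB, a BMP co-receptor, fell by 1.05 ± 0.10 on the log2 scale (adjusted p = 6.8e-05), as did NEO1 (0.46), the receptor of the RGM proteins, and CRIM1 (0.47). With Rapamycin against VPA, 3 of 23 were higher (CRIM1, ITGB8 and NEO1) and 2 lower (THBS1 and KCP), and against vehicle 4 of 21 were higher and 1, RGMB, lower.

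Among 25 intracellular regulators, 2 were higher with VPA (FKBP1A and ZEB2) and 8 lower, against 16.4% and 15.7% over all genes. The lower genes were led by TRIM33, TOB1 and USP9X with log2 fold changes of -0.53, -0.60 and -0.45. With Rapamycin against VPA 1 of 25 passed, the SMAD corepressor SKIL (log2 fold change 0.46 ± 0.09, adjusted p = 0.0045), and against vehicle 0 were higher by edgeR or DESeq2 (2 at an unadjusted p under 0.05 by edgeR) and 3 lower (TOB1, USP9X and TRIM33).

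Of 20 genes known to be raised by TGF-beta, 4 were higher with VPA (CYR61, TNC, COL1A1 and FN1) and 2 lower (IGFBP3 and ADAM12), shares near the 16.4% and 15.7% over all genes, with a median log2 fold change of 0.09. CYR61, a matricellular protein, rose from 611 ± 70.2 to 2103 ± 420 normalized counts (log2 fold change 1.78 ± 0.16, adjusted p = 3.0e-05) and stood at 461.5 ± 79.8 with Rapamycin (-2.19 ± 0.13, adjusted p = 5.6e-09 against VPA). IGFBP3, an insulin-like growth factor binding protein, fell from 843 ± 393 to 130.5 ± 8.45 (log2 fold change -2.69 ± 0.28, adjusted p = 9.0e-05) and stayed at 164 ± 84.8 with Rapamycin. Against VPA, 1 of 20 was higher with Rapamycin (SKIL) and 4 lower (CYR61, COL1A1, COL3A1 and CTGF), and against vehicle 0 were higher by edgeR or DESeq2 (2 at an unadjusted p under 0.05 by edgeR) and 2 lower. COL1A1 and COL3A1 are also mesenchymal markers, whose sums differed between the groups as given above, and their part was not tested.

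Of 13 genes known to be raised by BMP and tested in VPA against vehicle, 1 was higher (RUNX2) and 4 lower (GATA2, OLIG3, GATA3 and ZIC1), against 16.4% higher and 15.7% lower over all genes, with a median log2 fold change of -0.77. ZIC1 stood at 9.79, 23.9 and 639.6 normalized counts in vehicle and at 7.86, 33.5 and 4.68 with VPA, so its groups overlapped and its vehicle mean rested on replicate 3. GATA2, an interneuron and blood factor, fell from 465 ± 90.9 to 92.8 ± 34.5 normalized counts (log2 fold change -2.32 ± 0.25, adjusted p = 0.00010) and stood at 232 ± 44.7 with Rapamycin (1.32 ± 0.22, adjusted p = 0.0015 against VPA). OLIG3, a dorsal progenitor factor, had 35, 52 and 228 counts in vehicle and 7, 13 and 9 with VPA, and GATA3 gave a log2 fold change of -0.77 ± 0.18. With Rapamycin against vehicle, 1 of 14 was higher (RUNX2) and 5 lower (GATA2, OLIG3, GATA3, PDGFRA and HEY1). The genes of this list that fell are also lineage factors, GATA2 and GATA3 of interneurons and OLIG3 and ZIC1 of the dorsal spinal cord.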

How the data were processed

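Bulk poly-A RNA sequencing of 9 SCO libraries was analysed, 3 per group as labelled. Poly-T beads, random hexamer primers and a NEBNext Ultra kit were used by the authors to make the libraries. Per the submitters' processing notes, HISAT2 2.0.5 and featureCounts 1.5.0-p3 were used. Whether counting used strand is not given in the sources used here. The authors deposited raw counts, not normalized, in 3 tables (1 per pair of groups) of 30034, 29566 and 30047 genes on GRCh38, each gene with at least 2 reads in its table. The authors' fold changes and p-values from DESeq2 and 36 columns of normalized values per sample were not used. The gene lengths deposited by the authors were used for RPKM.

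Each pair was tested within its own table with edgeR 4.0.16 (R 4.3.3): TMM, filterByExpr at its defaults, quasi-likelihood F test, Benjamini-Hochberg adjustment over all genes tested and a threshold of 0.05, without a block. The alternatives were DESeq2 1.42.0, RLE factors, all genes kept whatever their counts, a minimum of 10 counts per library, a fit of the 9 libraries together, a block for the replicate number, a log2 fold change of 1 or more in size, and omission of single libraries. Standard errors came from the estimate and its F statistic. The scripts were tested on simulated data. Depth was 15290436 to 17417478 counts a library, intervals cover counting error only, and exact permutation of 3 against 3 libraries cannot give a p under 0.1.

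The members and gene lists were chosen with earlier results of these data known. Values per library are given for the 15 called members of smallest p in VPA against vehicle and in VPA+Rapamycin against VPA, 10 called members against vehicle, and the TGFB ligands, ID genes, SMAD6 and SMAD7, 26 genes in all. Some genes that enter the counts are not reported here. Genes outside the members were named where called with the 3 smallest p of their list and direction, and FN1, CTGF, TGFBI, ZIC1, PDGFRA, HEY1, SOX9, TFAP2A, COL3A1 and PRRX1 after their values were seen. Values per library of BMP4, BMP5, GDF7, BAMBI, ZIC1, TFAP2A and TGFBI were given after they were seen, as was KCP named with its count. Overlapping genes were read from GENCODE v29, whose coordinates matched those of all 61 members. Figures were drawn with matplotlib 3.10.9.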

Additional observations from a re-analysis of the deposited data

How the results depend on the processing

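Of 41 calls of a named gene in a comparison, 21 were kept and 20 lost at least once over the other tools, scalings, filters, fits and left-out libraries, with 0 changes of sign. This tally leaves out the minimum fold below, and ACVRL1 could not be tested against vehicle with at least 10 counts in every library. With vehicle as the reference, the 15 kept for VPA included LTBP1, LTBP2, CHRD, CHRDL1, TGFB1, TGFB2, INHBB, BMP6, BMP8B, GDF6, ACVRL1, ACVR2B, SMAD7 and ID1, and the 5 kept for VPA and Rapamycin included TGFB2, CHRDL1, BMP8B and ACVRL1. Requiring a log2 fold change of 1 or more in size left 9 higher and 2 lower members in VPA against vehicle, 0 and 0 in VPA+Rapamycin against VPA and 4 and 1 in VPA+Rapamycin against vehicle. Without the filter on low counts the lower members were 4 in VPA+Rapamycin against VPA and 5 against vehicle, and all 9 libraries in 1 fit gave 0 higher and 1 lower against VPA and 6 lower against vehicle, where DESeq2 gave 4. Over the fits that left out 1 library, higher and lower members ranged from 11 to 21 and 5 to 18 in VPA against vehicle, from 1 to 4 and 2 to 3 in VPA+Rapamycin against VPA, and from 5 to 16 and 2 to 9 in VPA+Rapamycin against vehicle. The cause of these changes was not tested, other than that fewer libraries enter such fits.

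Of 37 uncalled pairs of gene and comparison, 8 passed under at least 1 of these alternatives. Log2 fold changes of uncalled named genes changed sign in 13 pairs of gene and comparison. Leaving out 1 library gave ranges, in VPA against vehicle, of -0.049 to 0.62 for TGFB3 and -0.28 to 0.0013 for ID4. In VPA+Rapamycin against VPA the ranges were -0.26 to 0.060 for CHRD, -0.13 to 0.011 for ID2, -0.13 to 0.15 for ID1, -0.19 to 0.075 for SMAD6 and -0.081 to 0.063 for ID4, which was -0.0018 without the filter. In VPA+Rapamycin against vehicle they were -0.085 to 0.24 for TGFBR1, -0.13 to 0.36 for ID3, -0.21 to 0.21 for SMAD9, -0.058 to 0.50 for BMPR1B, -0.28 to 0.0025 for ID4 and -0.13 to 0.21 for BMPR2.

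Over all genes, libraries with the same replicate number shared little deviation from their group means. Correlations were -0.06 to 0.04, -0.02 to 0.05 and 0.06 to 0.14 in the 3 comparisons, and not every library correlated best with its own number. Single genes could still follow the number, such as TGFBI at 2720, 1068 and 783 normalized counts in vehicle. TGFBI stood at 1299, 294 and 90.8 with VPA and at 1559, 640 and 315 with both drugs. How many genes do so was not counted. The main fits took no pairing, which these correlations cannot exclude, and the block was run as an alternative. With the replicate block, higher and lower members were 19 and 11 in VPA against vehicle, 5 and 3 in VPA+Rapamycin against VPA and 17 and 4 in VPA+Rapamycin against vehicle. Depth limits the genes with few counts, and the 7 members under the filter were not tested in the main fits.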

Other observations

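Other marker lists were read in the same fits. The 9 neural crest markers summed to 10670 to 11480 normalized counts in vehicle, 9302 to 10400 with VPA and 10300 to 11100 with VPA and Rapamycin, and 5 of 8 tested were lower with VPA, SOX10, FOXD3, SOX9 and TFAP2A among them. TFAP2A stood at 9.79, 29.4 and 159.4 in vehicle and at 4.91, 17.2 and 9.36 with VPA. Its groups overlapped and its vehicle mean rested on replicate 3. The 6 muscle lineage markers with a row summed to 102 to 206 in vehicle, 300.2 to 359.6 with VPA and 121 to 165 with both drugs, and 2 of 4 tested, MYOD1 and TNNT1, were higher with VPA. The 5 pluripotency markers summed to 3935 to 7333, 3695 to 4488 and 3215 to 4116, and the 6 epithelial and endoderm markers to 183 to 780.8, 402.5 to 790.9 and 314.5 to 582.8. Only 2 of the 5 pluripotency markers passed the filter on low counts in each comparison, so their sum rests on few of the listed genes. DPPA4 was called lower with VPA, and LIN28A lower with Rapamycin against VPA.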
